A study of Arabidopsis thaliana with 208 samples.

Results

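SALK_070847C is a line of Arabidopsis with T-DNA, the segment that Agrobacterium transfers into plant genomes, and its roots were compared with roots of the wild type Col on 1 mM KNO3. The comparison used the 4 SALK_070847C libraries and the 4 Col libraries of that concentration, 8 libraries of a series that holds 26 groups of 4. A second comparison set the same 4 SALK_070847C libraries against the 28 libraries of the other 7 SALK lines on 1 mM KNO3: SALK_012253, SALK_015182, SALK_035980, SALK_085964C, SALK_094437C, SALK_100002 and SALK_146141, which also carry a T-DNA. The 4 SALK_070847C and 4 Col libraries on 10 mM KNO3 were set beside them. Plants of all groups were seedlings 9 days old, only roots were taken, and a replicate combined the seedlings of 2 plates. All media held the same KCl, so potassium differed together with nitrate between the concentrations and not between the lines within one. The assay was a 3′ digital gene expression protocol (BRAD-seq DGE), whose reads fall near the ends of transcripts.

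The labels name the line and not the gene that carries the insertion. RAV2 (AT1G68840) was set down for the line from general knowledge of the stock. Only this line was set down for RAV2. An effect of RAV2 and an effect of any other sequence difference of the line therefore cannot be told apart here. RAV2, also known as TEMPRANILLO 2, is a transcription factor with an AP2 and a B3 DNA-binding domain, and in leaves it is known, together with its close relative TEM1, as a repressor of flowering and of gibberellin synthesis. RAV proteins bind a bipartite element made of the motifs CAACA and CACCTG. Roots take up nitrate through transporters whose genes respond to nitrate supply, and LBD and NIGT1 (HRS1 and HHO) proteins are known repressors in that response.

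With both sequencing runs summed, the 8 libraries on 1 mM KNO3 held between 6639185 and 11483217 counts, and between 21338 and 21993 nuclear genes had a count. The 28 libraries of the other SALK lines held between 5011449 and 12793049 counts. Sample titles carry a tag, str with a number, which is read here as a library strip though the titles do not spell it out. The number was 1, 3, 8 and 10 in SALK_070847C replicates 1 to 4 and 1, 2, 7 and 9 in the Col replicates. By that reading only replicate 1 of each group shared a strip. Organelle reads made up 0.402%, 0.505%, 0.520% and 1.34% of run 1 in the SALK_070847C libraries, against 0.378%, 1.11%, 0.480% and 0.460% in the Col libraries. A gene is said to be called, and to have risen or fallen, where its adjusted p in edgeR's quasi-likelihood test was under 0.05 over the 19664 genes tested. Levels are given as CPM, counts scaled to the normalised library size of that fit. A tag count is not divided by length here, since each transcript gives reads at its 3′ end, and levels are compared between libraries and not between genes.

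RAV2 was lower in the roots of SALK_070847C than in either reference. Its level was 10.1, 11.3, 10.8 and 12.5 CPM in the 4 SALK_070847C libraries, against 39.0, 34.5, 38.5 and 37.0 CPM in the 4 Col libraries. In the 28 libraries of the other 7 SALK lines the lowest level was 17.7, the median 33.9 and the highest 49.3 CPM. The SALK_070847C libraries were thus below each library of both references, and they lay close to each other. The means were 11.2 ± 1.00 CPM in SALK_070847C and 37.3 ± 2.04 CPM in Col (SD, n = 4 each). The log2 change was -1.73 ± 0.21 (SE) against Col (edgeR adjusted p = 3.778e-09) and -1.58 ± 0.17 against the other 7 SALK lines (edgeR adjusted p = 9.504e-11). About 30.1% of the Col level therefore remained by the fit. Between 77 and 128 RAV2 reads were counted in each SALK_070847C library, and since such reads cover only the 3′ end, the counts do not show whether a working transcript was made.

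On 10 mM KNO3 the fall of RAV2 was of similar size. The 4 SALK_070847C libraries held 8.35, 6.12, 8.72 and 7.93 CPM, against 38.8, 36.0, 31.2 and 35.4 CPM in the 4 Col libraries. The log2 change was -2.19 ± 0.22 (edgeR adjusted p = 8.924e-12). The difference between the changes at the 2 concentrations did not pass the test (log2 difference -0.46, edgeR adjusted p = 0.9999).

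The comparison with Col called 40 genes, 0.203% of those tested: 22 rose (0.112%) and 18 fell (0.0915%). The comparison with the other 7 SALK lines called 13 genes, 0.0661% of those tested, of which 8 were higher (0.0407%) and 5 lower (0.0254%). Without adjustment, 2121 genes (10.8%) had a p under 0.05 against Col and 735 (3.74%) against the other 7 SALK lines. The 2 comparisons share the 4 SALK_070847C libraries, so they are not independent of each other. The count against Col depended on single libraries. It was 10 without SALK_070847C replicate 1, 12 without replicate 2, 26 without replicate 3 and 32 without replicate 4. It was 78 without Col replicate 1, 22 without replicate 2, 10 without replicate 3 and 19 without replicate 4. With the library strip as a term in the fit it was 819.

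In 5 genes the test was passed against both references in the same direction, and all 5 lie on chromosome 1, which holds 26.5% of the genes tested. RAV2, BGLU34 and AT1G08040 fell, while STN7 and PHO1;H1 rose. Of the 40 genes called against Col, 4 were called under each of the 19 alternative settings, namely RAV2, BGLU34, AT1G08040 and AT3G25150, and 7 were called with each of the 8 libraries left out in turn. STN7 lost its call in 8 of the 19 settings and PHO1;H1 in 7.

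**Figure D1:**
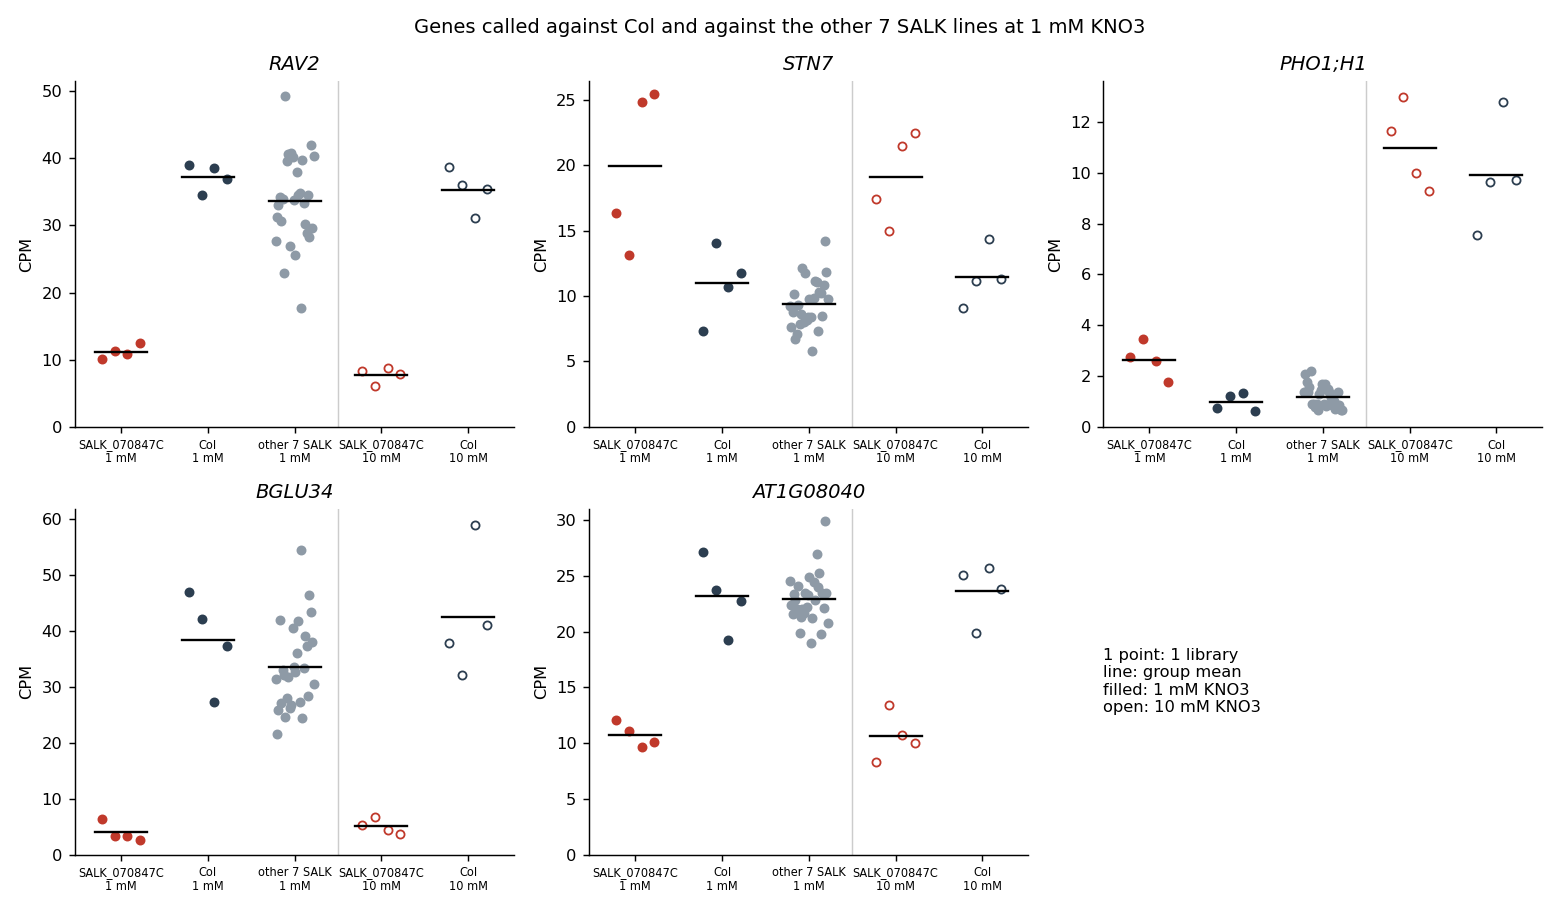
Level in CPM (vertical axis, linear, from 0) of the 5 genes called against both references, 1 point per library and a line at each group mean, for SALK_070847C, Col and the other 7 SALK lines on 1 mM KNO3 (filled) and for SALK_070847C and Col on 10 mM KNO3 (open). RAV2, BGLU34 and AT1G08040 lay below all Col libraries at both concentrations, while PHO1;H1 stood apart from Col at 1 mM and overlapped with it at 10 mM.

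BGLU34 (AT1G47600) had the largest fall. It encodes a myrosinase, an enzyme that splits glucosinolates, the sulfur-rich defence compounds of the cabbage family, and it is known as a root form. Its level was 6.42, 3.37, 3.41 and 2.62 CPM in the SALK_070847C libraries, against 47.0, 42.1, 27.2 and 37.4 CPM in the Col libraries. The other 7 SALK lines ranged from 21.5 to 54.4 CPM, with a median of 32.4 CPM, so no library of either reference reached down to the SALK_070847C values. The log2 change was -3.31 ± 0.25 against Col (edgeR adjusted p = 7.167e-18) and -3.10 ± 0.23 against the other 7 SALK lines (edgeR adjusted p = 2.335e-19), a level 9.89 and 8.56 times lower. On 10 mM KNO3 the libraries held 5.31, 6.73, 4.42 and 3.69 CPM in SALK_070847C, against 37.8, 32.2, 59.0 and 41.0 CPM in Col, a log2 change of -3.08 ± 0.26 (edgeR adjusted p = 7.805e-16). The closest copy of the 3′ end of BGLU34 was BGLU35 (AT1G51470), the other root myrosinase of this type, which matched it at 87.7% over 276 bases, so reads could be assigned to the wrong member of the pair. BGLU35 was at 46.0, 51.9, 41.6 and 38.4 CPM in SALK_070847C, against 73.9, 56.7, 44.9 and 57.9 CPM in Col, and its log2 change of -0.39 ± 0.21 did not pass the test (edgeR adjusted p = 0.5083). The groups overlapped in BGLU35, and the part of misassigned reads in the BGLU34 values was not tested.

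AT1G08040 encodes a protein with a DUF707 domain, whose function is not known. Its level was 12.1, 11.1, 9.64 and 10.1 CPM in the SALK_070847C libraries, against 27.2, 23.7, 19.3 and 22.8 CPM in the Col libraries. Libraries of the other 7 SALK lines ranged from 19.0 to 29.9 CPM with a median of 22.8 CPM, and again neither reference overlapped with SALK_070847C. The log2 change was -1.12 ± 0.12 against Col (edgeR adjusted p = 4.46e-11) and -1.10 ± 0.10 against the other 7 SALK lines (edgeR adjusted p = 5.817e-15). At the higher concentration it was -1.13 ± 0.12 (edgeR adjusted p = 9.509e-11), from 10.6 ± 2.13 CPM in SALK_070847C and 23.63 ± 2.60 CPM in Col. An annotated locus on the opposite strand, AT1G08035, overlaps with AT1G08040, and reads of the pair cannot be told apart without the strand.

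STN7 (AT1G68830) is the annotated locus next to RAV2, and the genes point away from each other, STN7 on the minus and RAV2 on the plus strand. It encodes the thylakoid kinase that phosphorylates light-harvesting antenna proteins. Its level was 16.4, 13.1, 24.8 and 25.5 CPM in the SALK_070847C libraries, against 7.36, 14.1, 10.7 and 11.8 CPM in the Col libraries. In the other 7 SALK lines it ranged from 5.81 to 14.2 CPM with a median of 9.29 CPM. SALK_070847C replicate 2 lay inside the range of both references, and the other 3 libraries lay above it. The log2 change was 0.84 ± 0.18 against Col (edgeR adjusted p = 0.0201) and 1.097 ± 0.13 against the other 7 SALK lines (edgeR adjusted p = 2.23e-09). The call against Col rested on single libraries: the edgeR adjusted p was 0.09148 without SALK_070847C replicate 3, 0.1041 without replicate 4, and 0.08083, 0.1228 and 0.05033 without Col replicates 1, 3 and 4. The call against the other 7 SALK lines was kept in each of its 22 alternative settings. In roots on 10 mM KNO3 STN7 was at 17.5, 15.0, 21.5 and 22.4 CPM in SALK_070847C, against 9.09, 11.1, 14.4 and 11.3 CPM in Col. The log2 difference of 0.75 ± 0.19 did not pass the test (edgeR adjusted p = 0.2033). All 4 SALK_070847C libraries lay above all 4 Col libraries there. On 1 mM KNO3 this held for 2.36% of all tested genes, and on 10 mM KNO3 the share was not counted.

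The stretch of 250 bases before the start of each gene of this divergent pair is shown because it is where elements of RAV proteins would be looked for first. Sequence and positions are those of the RefSeq annotation of TAIR10.1, chr1:25879905-25880154 on the plus strand for RAV2 and chr1:25875663-25875912 on the minus strand for STN7, both written 5′ to 3′, with CAACA or its reverse complement TGTTG in capitals.
RAV2: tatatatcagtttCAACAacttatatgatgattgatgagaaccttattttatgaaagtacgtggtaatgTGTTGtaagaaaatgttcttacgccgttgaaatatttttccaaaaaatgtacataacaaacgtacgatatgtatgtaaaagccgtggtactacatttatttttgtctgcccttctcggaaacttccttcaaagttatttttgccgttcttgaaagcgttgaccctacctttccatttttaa
STN7: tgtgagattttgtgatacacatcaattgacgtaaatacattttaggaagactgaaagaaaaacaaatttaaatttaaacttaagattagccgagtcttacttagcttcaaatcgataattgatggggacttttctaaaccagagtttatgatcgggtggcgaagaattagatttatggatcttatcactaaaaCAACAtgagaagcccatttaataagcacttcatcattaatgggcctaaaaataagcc
The RAV2 stretch holds CAACA at 2 places and the STN7 stretch at 1, and neither holds CACCTG. Searched on both strands, CAACA stood in 47.4% of the stretches of all 27443 protein-coding genes, CACCTG in 2.57% and both in 1.32%. Among the genes called against Col it stood in 7 of the 21 protein-coding ones that rose (33.3%) and in 8 of the 18 that fell (44.4%). CACCTG stood in 1 gene that fell and in 0 that rose, and no called gene held both motifs.

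PHO1;H1 (AT1G68740) belongs to the PHO1 family, whose members export phosphate, and is the locus 15 annotated places before RAV2. On 1 mM KNO3 it was low everywhere, at 2.75, 3.46, 2.59 and 1.78 CPM in the SALK_070847C libraries, against 0.751, 1.24, 1.35 and 0.626 CPM in the Col libraries. The other 7 SALK lines ranged from 0.659 to 2.18 CPM with a median of 1.08 CPM, so SALK_070847C stood apart from Col and overlapped with the highest of the other lines. The counts behind these values were 21, 39, 22 and 17 reads in SALK_070847C and 5, 15, 11 and 6 reads in Col. The log2 change was 1.39 ± 0.30 against Col (edgeR adjusted p = 0.0201) and 1.2 ± 0.21 against the other 7 SALK lines (edgeR adjusted p = 0.0003517). Against Col the edgeR adjusted p was 0.06258 without SALK_070847C replicate 1, 0.1593 without replicate 2 and 0.1138 without Col replicate 4, and limma-voom gave 0.07235. At the higher concentration, where PHO1;H1 was at 11 ± 1.66 CPM in SALK_070847C and 9.92 ± 2.15 CPM in Col, the log2 difference was 0.15 ± 0.21 (edgeR adjusted p = 0.9368). The difference between the concentrations had an edgeR p of 0.001121 before adjustment and 0.9999 after it.

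Around RAV2, the 20 tested loci on each side were read in chromosome order. Of these 40 neighbours, 2 were called against each reference, STN7 and PHO1;H1. Over all genes tested, the share called was 0.203% against Col and 0.0661% against the other 7 SALK lines. The other neighbours had log2 changes between -0.42 and 0.66 against Col and between -0.49 and 0.48 against the other 7 SALK lines. On the other side of RAV2 the nearest tested loci were AT1G68850 (log2 difference -0.21 ± 0.15, edgeR adjusted p = 0.6373), AT1G68862 (0.27 ± 0.24, 0.7399), AT1G68872 (0.38 ± 0.29, 0.6708) and the bZIP gene AT1G68880 (0.66 ± 0.24, 0.2426). Beyond STN7 the nearest were RTFL15 (0.34 ± 0.28, edgeR adjusted p = 0.702), AT1G68820 (-0.10 ± 0.14, 0.8479) and AT1G68810 (0.12 ± 0.14, 0.8043), all against Col. None of these 7 passed the test against either reference.

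**Figure D2:**
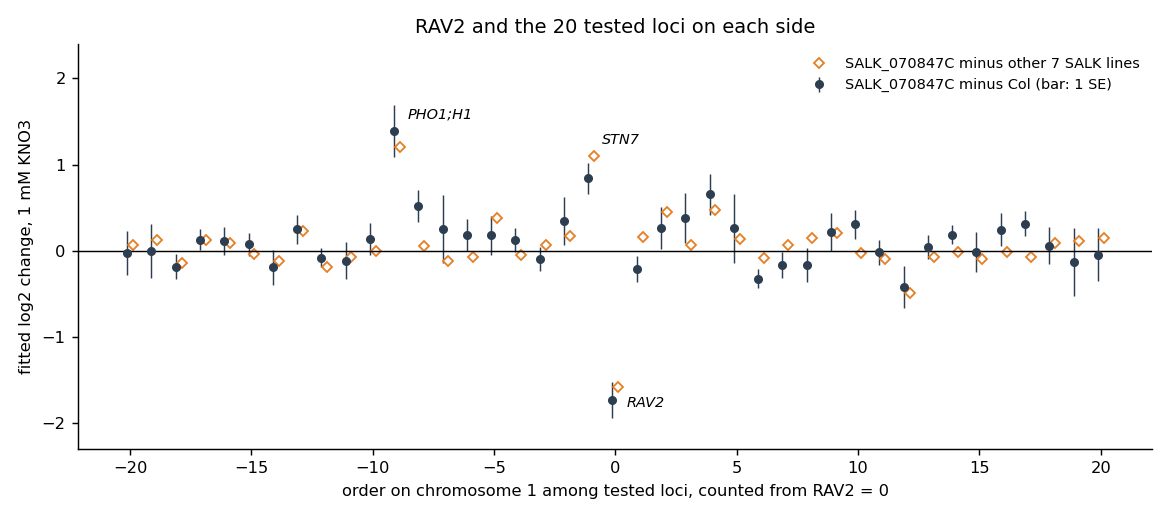
Fitted log2 change on 1 mM KNO3 (vertical axis) of RAV2 and the 20 tested loci on each side of it, by their order on chromosome 1 (horizontal axis), for SALK_070847C minus Col (filled, bar 1 SE) and minus the other 7 SALK lines (open). STN7 at place -1 and PHO1;H1 at place -9 stand above the other neighbours, which lie between -0.42 and 0.66 against Col.

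The relatives of RAV2 did not pass the test. Of the 10 members of the RAV and NGA family, 5 had enough counts to be tested. EDF3 was at 28.2, 26.6, 29.4 and 40.4 CPM in the SALK_070847C libraries, against 21.8, 17.0, 13.7 and 20.05 CPM in the Col libraries, with no overlap and a log2 difference of 0.78 ± 0.29 (edgeR adjusted p = 0.249). With the library strip in the fit its adjusted p was 0.0418, and it was 0.03394 with the replicate number as a block. RAV1 was at 19.1, 20.1, 9.41 and 10.5 CPM in SALK_070847C, against 14.7, 6.42, 11.8 and 7.0 CPM in Col (log2 difference 0.60 ± 0.36, edgeR adjusted p = 0.5525), and its adjusted p was 0.01728 with the strip in the fit. TEM1, the close relative of RAV2, was at 9.13 CPM in SALK_070847C and 6.59 CPM in Col on average (log2 difference 0.48 ± 0.27, edgeR adjusted p = 0.5319). NGA3, of the branch that shapes leaf and fruit margins, was low at 1.56 and 1.77 CPM (log2 difference -0.23 ± 0.32, edgeR adjusted p = 0.8442).

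For most of the other genes called against Col, the other 7 SALK lines stood near SALK_070847C and Col stood apart. Of the 40 called genes, the mean of the other 7 SALK lines lay nearer to SALK_070847C in 31 and nearer to Col in 9. The 35 genes not called against the other 7 SALK lines had a median absolute log2 change of 0.65 against Col and of 0.14 against the other 7 SALK lines, and in 33 of them the second value was under 0.5. The genes were chosen for their change against Col, so a smaller value against another reference is a description. All 4 SALK_070847C libraries lay on one side of all 4 Col libraries in 38 of the 40 genes. Among all tested genes this held for 464 with SALK_070847C above (2.36%) and 479 with SALK_070847C below (2.44%). Against the 28 libraries of the other 7 SALK lines, 1 tested gene lay above all of them (0.00509%) and 5 below (0.0254%).

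**Figure D3:**
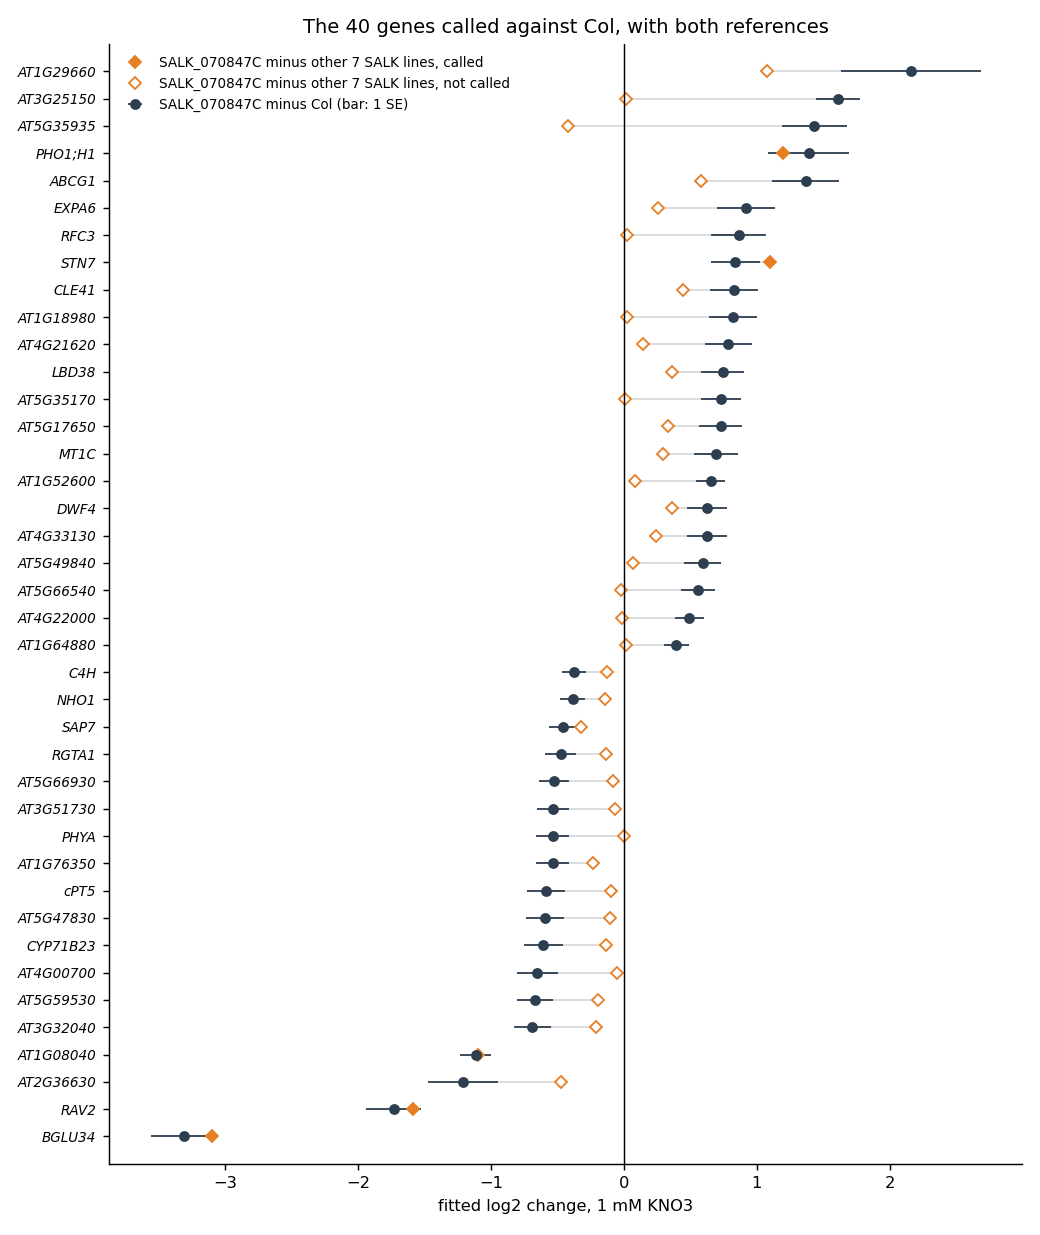
Fitted log2 change on 1 mM KNO3 (horizontal axis) of the 40 genes called against Col, for SALK_070847C minus Col (circles, bar 1 SE) and SALK_070847C minus the other 7 SALK lines (diamonds, filled where called). The diamonds of RAV2, BGLU34, AT1G08040, STN7 and PHO1;H1 lie by their circles, while most others lie near 0.

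AT3G25150 was the clearest example. It encodes an RNA-binding protein with an NTF2 domain. Its level was 65.5, 78.7, 83.3 and 50.6 CPM in the SALK_070847C libraries, against 25.2, 18.8, 22.1 and 25.3 CPM in the Col libraries, and the log2 change was 1.61 ± 0.17 (edgeR adjusted p = 2.124e-11). The other 7 SALK lines ranged from 49.4 to 86.5 CPM with a median of 67.5 CPM, so SALK_070847C lay inside their range. Its log2 difference from them was 0.02 ± 0.12 (edgeR adjusted p = 0.9999). Over the 11 other insertion lines, with the GABI and SAIL lines included, the means of AT3G25150 lay between 59.8 and 73.5 CPM. In roots on 10 mM KNO3 it was at 88.6 ± 15.6 CPM in SALK_070847C and 43.2 ± 2.86 CPM in Col (log2 change 1.03 ± 0.16, edgeR adjusted p = 4.629e-05). AT3G25150 overlaps with an annotated locus on the opposite strand, AT3G25140, and reads of the pair cannot be told apart without the strand. The same limit holds for ABCG1, RFC3, AT1G18980, AT1G76350, cPT5, AT5G49840 and PSBP-1, named below, which also overlap with loci on the opposite strand.

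AT5G35935, annotated as a pseudogene, was at 11.8, 10.6, 4.47 and 4.29 CPM in SALK_070847C, against 3.0, 3.46, 2.45 and 2.51 CPM in Col, a log2 change of 1.43 ± 0.25 (edgeR adjusted p = 0.0003256). Libraries of the other 7 SALK lines held 7.30 to 15.6 CPM, a range that took in SALK_070847C replicates 1 and 2 and lay above replicates 3 and 4. The log2 difference from these lines was -0.42 ± 0.17 (edgeR adjusted p = 0.9999). Unlike AT3G25150, AT5G35935 did not set Col apart from all insertion lines. It averaged 2.07 CPM in GABI_513E07, 0.31 in GABI_699B09, 3.52 in GABI_868_E02 and 0.32 in SAIL_1207_H04, beside 2.86 CPM in Col. AT1G52600, a peptidase family gene chosen after its values were seen, was at 79.7 ± 8.18 CPM in SALK_070847C, 50.8 ± 9.64 CPM in Col and 75.2 ± 9.48 CPM in the other 7 SALK lines (SD over 28 libraries), with a log2 change of 0.65 ± 0.11 against Col (edgeR adjusted p = 0.0002224) and a difference of 0.09 ± 0.08 from the other 7 SALK lines.

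Besides these, the genes that rose against Col with at least 5 CPM included ABCG1, an ABC transporter, at 7.18 ± 1.24 CPM in SALK_070847C, 2.75 ± 0.561 CPM in Col and 4.81 ± 1.51 CPM in the other 7 SALK lines (log2 change 1.37 ± 0.25 against Col, edgeR adjusted p = 0.001534). The expansin EXPA6, which loosens cell walls, rose by 0.92 ± 0.22 on the log2 scale against Col (edgeR adjusted p = 0.04121), a call lost in 10 of its 19 alternative settings. CLE41, a peptide that promotes division in the vascular cambium, was at 21.1, 16.1, 15.5 and 18.23 CPM in SALK_070847C, against 11.9, 8.89, 8.46 and 10.9 CPM in Col (log2 change 0.83 ± 0.18, edgeR adjusted p = 0.01984), and the difference of 0.44 from the other 7 SALK lines did not pass the test (edgeR adjusted p = 0.4335). LBD38, a nitrate-induced repressor of nitrogen genes, was at 51.2, 39.1, 33 and 34.6 CPM in SALK_070847C, against 34.7, 21.2, 20.7 and 18.5 CPM in Col (log2 change 0.74 ± 0.16, edgeR adjusted p = 0.0201). Col replicate 1 lay inside the SALK_070847C range, and the other 7 SALK lines spanned 19.3 to 44.9 CPM with a median of 30.7 CPM. The call of LBD38 was lost without SALK_070847C replicates 1 and 2 (edgeR adjusted p = 0.1693 and 0.06687) and without Col replicates 2, 3 and 4 (0.08097, 0.1729 and 0.1246), each left out alone. RFC3, AT1G18980, AT4G21620, AT5G35170 and AT5G17650 rose by 0.73 to 0.86 on the log2 scale against Col, and their differences from the other 7 SALK lines were between 0.01 and 0.33. The call of RFC3 was lost in 13 of 19 alternative settings and those of the other 4 in 8 each. The rise with the largest fitted size, 2.16 ± 0.53 in the lipase gene AT1G29660 (edgeR adjusted p = 0.0482), was at 1.79 CPM in SALK_070847C and 0.412 CPM in Col and was not called in 14 of its 18 alternative settings.

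Among the genes that fell, AT2G36630, of a sulfite exporter family, was at 1.57, 2.84, 4.12 and 2.51 CPM in SALK_070847C, against 5.11, 5.60, 8.95 and 6.06 CPM in Col (log2 change -1.21 ± 0.26, edgeR adjusted p = 0.0201). The other 7 SALK lines, at 2.23 to 6.37 CPM, held the SALK_070847C values except the lowest. The photoreceptor gene PHYA was at 54.0, 57.8, 60.4 and 54.7 CPM in SALK_070847C, against 71.3, 64.5, 110 and 83.0 CPM in Col (log2 change -0.54 ± 0.12, edgeR adjusted p = 0.03572), while the other 7 SALK lines had the same mean of 56.7 CPM as SALK_070847C. The call of PHYA was lost in 9 of 19 alternative settings and that of AT2G36630 in 7. AT3G32040, a terpenoid synthase family gene with a near-identical copy in AT3G29430, was at 37.4 ± 5.67 CPM in SALK_070847C and 60.3 ± 7.77 CPM in Col (log2 change -0.69 ± 0.14, edgeR adjusted p = 0.006969). The oxygenase gene AT5G59530 was at 89.8 ± 4.83 CPM in SALK_070847C and 142 ± 17.8 CPM in Col (log2 change -0.67 ± 0.14, edgeR adjusted p = 0.009583). AT1G76350, of the RWP-RK family that includes nitrate-responsive regulators, fell by 0.54 ± 0.13 on the log2 scale against Col (edgeR adjusted p = 0.03884), and AT4G00700, CYP71B23, AT5G47830 and cPT5 fell by 0.59 to 0.65. The call of AT1G76350 was lost in 10 of 19 alternative settings, that of AT4G00700 in 11, and those of CYP71B23, AT5G47830 and cPT5 in 12 each. The differences of these 5 genes from the other 7 SALK lines were between -0.23 and -0.05.

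The other 8 genes called against the other 7 SALK lines were not called against Col. They fall outside the naming rule and are named after their values were seen. PSBP-1, a subunit of the oxygen-evolving complex of photosystem II, was at 10.2, 14.2, 11.6 and 7.44 CPM in SALK_070847C, against 6.01, 6.42, 6.38 and 5.95 CPM in Col and a median of 6.01 CPM in the other 7 SALK lines. Its log2 difference was 0.81 ± 0.22 against Col (edgeR adjusted p = 0.08082) and its log2 change 0.74 ± 0.15 against the other 7 SALK lines (edgeR adjusted p = 0.01214). LHCA2, an antenna protein of photosystem I, was at 1.44, 3.55, 2.23 and 0.628 CPM in SALK_070847C, against 0.451, 0.412, 0.981 and 0.835 CPM in Col, and it rose by 1.28 ± 0.29 on the log2 scale against the other 7 SALK lines (edgeR adjusted p = 0.03471). That call was lost in 11 of its 22 alternative settings. The cytochrome P450 gene CYP71B12 rose by 1.68 ± 0.33 on the log2 scale against the other 7 SALK lines, at 1.32 and 0.409 CPM, and 91.2% of 239 bases of its 3′ end match AT5G25120.

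AT2G01422, a non-coding RNA, rose by 2.78 ± 0.35 on the log2 scale against the other 7 SALK lines, at 1.93 and 0.318 CPM, while Col was at 1.39 CPM, beside SALK_070847C. Over the 11 other insertion lines its means lay between 0.143 and 4.14 CPM, a range that took in SALK_070847C. AT3G29120 and AT3G29140, listed 2 locus numbers apart on chromosome 3, were lower in SALK_070847C than in all 28 libraries of the other 7 SALK lines. AT3G29120 was at 0.0927 CPM in SALK_070847C, 0.607 CPM in Col and 1.95 CPM in the other 7 SALK lines, and it has near-identical copies, with AT1G62766 matching its last 300 bases at 99.7%. AT3G29140 was at 1.09, 1.84 and 3.62 CPM in the same order. Outside the SALK lines, GABI_699B09 averaged 0.025 CPM in AT3G29120, below SALK_070847C, and the other GABI and SAIL lines 1.39 to 1.63 CPM. AT5G08250, another cytochrome P450 gene, was higher than the mean of the other 7 SALK lines (0.59 ± 0.13, edgeR adjusted p = 0.02156). This call was lost in 10 of its 22 alternative settings. The gene was at 15.4 CPM in SALK_070847C, 19.6 CPM in Col and 10.7 CPM on average in the other 7 SALK lines. Among these lines SALK_015182 averaged above SALK_070847C, so the gene was not higher than in each of them. AT5G61590, an ERF transcription factor gene, was called against the other 7 SALK lines through 1 reference line: SALK_015182 averaged 2.64 CPM, and without that line the gene was not called.

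On 10 mM KNO3, 7 genes were called against Col, 0.0356% of those tested, of which 3 rose (0.0153%) and 4 fell (0.0203%), while 1368 (6.96%) had an unadjusted p under 0.05. These libraries form no side of the comparison on 1 mM KNO3, but they entered the same fit and so its scaling and estimate of spread. With the 52 libraries on 1 mM KNO3 fitted alone, 32 genes were called against Col there, 23 of them among the 40. BGLU34, RAV2, AT1G08040, AT3G25150 and AT5G35935 were called on both concentrations in the same direction. The other 2, named after their values were seen, were BGLU40, at 2.39 ± 0.318 CPM in SALK_070847C and 0.854 ± 0.335 CPM in Col on 10 mM KNO3 (log2 change 1.51 ± 0.30, edgeR adjusted p = 0.01028), and ARP9, an actin-related protein gene, at 8.11 ± 1.90 and 14.0 ± 3.36 CPM (log2 change -0.83 ± 0.18, edgeR adjusted p = 0.0363). On 1 mM KNO3 the log2 difference was 0.91 ± 0.25 in BGLU40 and -0.49 ± 0.17 in ARP9, neither past the test.

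Of the 40 genes called on 1 mM KNO3, 37 had the same sign on 10 mM KNO3. Their median change in the direction of 1 mM was 0.26 on the log2 scale on 10 mM KNO3, beside a median absolute change of 0.68 on 1 mM KNO3, the concentration that chose them, and a median absolute change of 0.14 over all genes tested on 10 mM KNO3. ABCG1 was at 4.05, 5.50, 5.05 and 4.24 CPM in SALK_070847C on 10 mM KNO3, against 2.87, 3.71, 4.53 and 3.86 CPM in Col, so the groups overlapped there. LBD38 was at 71.8 ± 7.35 CPM in SALK_070847C and 63.7 ± 6.17 CPM in Col on 10 mM KNO3 (log2 difference 0.18 ± 0.16, edgeR adjusted p = 0.8727).

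The test of the difference between the concentrations called 0 genes by edgeR, and DESeq2 and limma-voom also called 0. At an unadjusted p under 0.05 it held 863 genes, 4.39% of those tested. The smallest adjusted p, 0.2116, was that of AT1G72820, at 22.5, 33.5, 26.5 and 21.7 CPM in SALK_070847C against 33.9, 27.2, 39.98 and 35.5 CPM in Col on 1 mM KNO3, and at 46.0 ± 3.79 CPM in SALK_070847C and 35.0 ± 6.28 CPM in Col on 10 mM KNO3. The next was AT5G49840, annotated as an ATP-dependent Clp protease gene, which rose by 0.59 ± 0.14 on the log2 scale on 1 mM KNO3 and differed by -0.18 ± 0.13 on 10 mM KNO3 (edgeR adjusted p of the difference = 0.6966). The count of 0 became 1 without SALK_070847C replicate 2 or without Col replicate 2, and 2 with the strip in the fit.

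**Figure D4:**
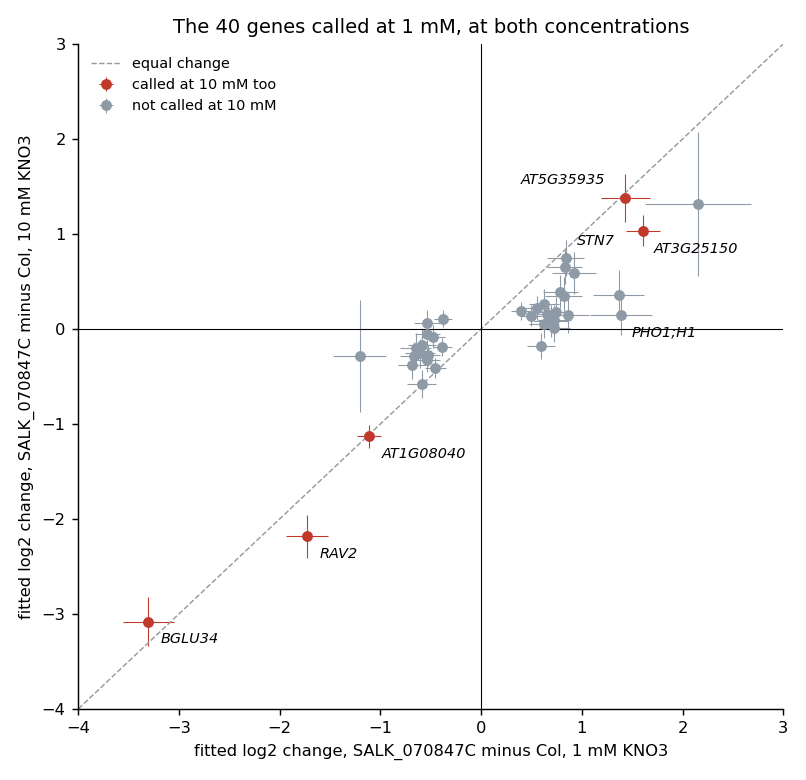
Fitted log2 change of SALK_070847C minus Col for the 40 genes called on 1 mM KNO3, on 1 mM (horizontal axis) and 10 mM KNO3 (vertical axis), bars 1 SE, dashed line equal change. BGLU34, RAV2, AT1G08040, AT3G25150 and AT5G35935 were called at both concentrations, with AT3G25150 at 1.61 on 1 mM and 1.03 on 10 mM KNO3, and most other genes lie nearer to 0 on 10 mM KNO3.

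The 28 gene lists held 375 genes, of which 327 were tested and 3 were called against Col (0.917%, beside 0.203% of all genes): RAV2, LBD38 and PHO1;H1. RAV2 was put in the lists as the gene of the line. The median log2 change of all genes tested was 0.0002 against Col and 0.0043 against the other 7 SALK lines. In 14 of the 28 lists the median against Col was within 0.1 of 0.

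Among the listed nitrogen genes, only LBD38 was called against Col. AT1G76350, of the RWP-RK family, fell against Col and was not in these lists. Of the 20 tested genes of nitrate sensing and regulation, 12 had a positive and 8 a negative log2 value against Col, with a median of 0.14. BT2, a nitrate-responsive scaffold protein, had a log2 difference of 0.78 ± 0.26 (edgeR adjusted p = 0.1881) and BT1 one of 0.65 ± 0.29 (0.3822). The nitrate transceptor NRT1.1 differed by -0.01 ± 0.17. Of the 11 genes of high-affinity uptake 8 were lower, with a median of -0.35 against Col and -0.11 against the other 7 SALK lines. The nitrate transporter gene NRT2.5 was at 0.786, 1.24, 1.41 and 2.09 CPM in SALK_070847C, against 3.90, 3.87, 3.80 and 3.97 CPM in Col (log2 difference -1.46 ± 0.43, edgeR adjusted p = 0.1277), below each Col library but inside the range of 0.331 to 7.68 CPM of the other 7 SALK lines. NRT2.4 differed by -0.81 ± 0.26 (edgeR adjusted p = 0.1815) and NRT2.1, the main inducible transporter, by 0.06 ± 0.16. The median of the uptake list against Col was -0.15 without Col replicate 3. Reduction and assimilation genes had a median of 0.02 over 18 genes, and GLU1, at 0.712 CPM in SALK_070847C and 0.316 CPM in Col, had the largest value there (1.11 ± 0.51, edgeR adjusted p = 0.4085).

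The flowering and gibberellin lists, tied to the known roles of RAV2, held no called gene against either reference. The ethylene, clock and glucosinolate lists held none either. The 14 tested flowering regulators had a median of 0.02, and the largest value, in SNZ, came from 0.209 CPM in SALK_070847C and 0.0522 CPM in Col. The 20 tested genes of gibberellin synthesis, turnover and signalling had a median of -0.02, between -0.57 in GA2OX4 and 0.68 in GA2OX1. Of 21 ethylene genes 17 had a negative value against Col, with a median of -0.09, and ERF1 had the largest size at -0.60. Against the other 7 SALK lines 11 of the 21 were negative. Clock genes had a negative value in 13 of 15, with a median of -0.17 against Col and -0.01 against the other 7 SALK lines. Glucosinolate lists, which name the substrates of BGLU34, had medians of 0.20 (aliphatic) and -0.04 (indole) against Col with 0 genes called in each.

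Heat shock genes had a negative value in 9 of 10 against Col, with a median of -0.64, and in 10 of 10 against the other 7 SALK lines, with a median of -0.40. None was called. The summed level of the list was 194, 412, 368 and 197 CPM in the SALK_070847C libraries, against 198, 729, 383 and 393 CPM in the Col libraries, and 137 to 1267 CPM in the other 7 SALK lines. The groups overlapped, and Col replicate 2 was the highest of the 8 libraries. Without it the median against Col was -0.11. The largest size was that of a small heat shock protein gene: HSP17.6A averaged 2.43 CPM in SALK_070847C and 16.3 CPM in Col (log2 difference -2.82 ± 1.02, edgeR adjusted p = 0.2426). Among the other 7 SALK lines it averaged 46.3 CPM in SALK_085964C, 47.9 CPM in SALK_094437C and 2.89 to 4.28 CPM in the rest, near SALK_070847C.

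**Figure D5:**
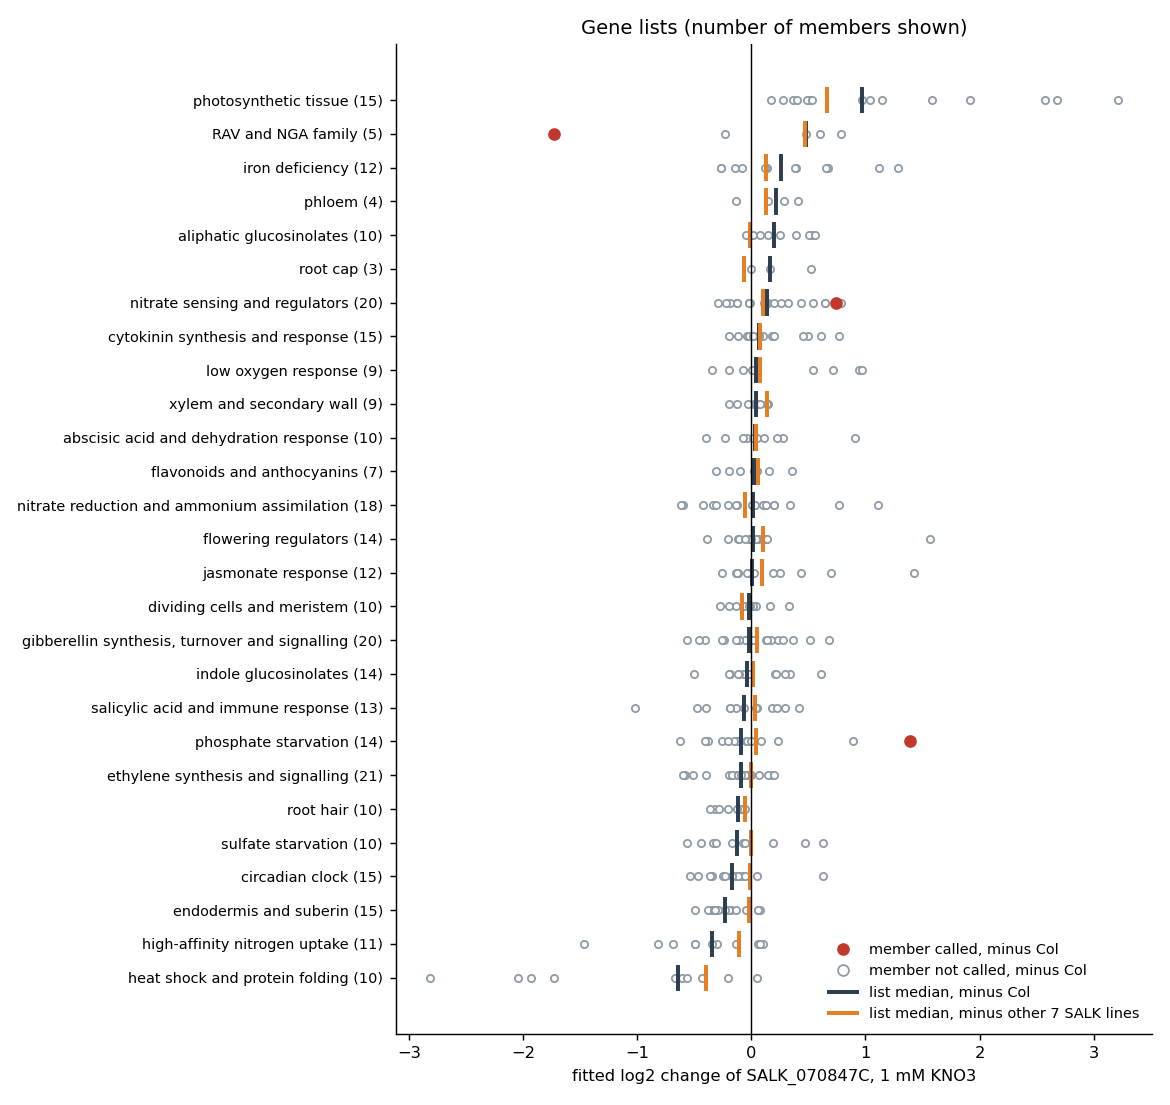
Fitted log2 change on 1 mM KNO3 (horizontal axis) of the tested members of 27 lists, SALK_070847C minus Col, with called members filled, and list medians against Col (dark) and against the other 7 SALK lines (orange); BHLH100 and the seed genes, with no count in any Col library, are left out. RAV2, LBD38 and PHO1;H1 are the called members, and all 15 photosynthetic tissue genes lie to the right of 0.

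Other response lists, each with 0 called genes unless named, had medians against Col of 0.07 for cytokinin, 0.00 for jasmonate, -0.06 for salicylic acid and immunity, 0.03 for abscisic acid, 0.04 for low oxygen, -0.12 for sulfate starvation and 0.02 for flavonoids. Wide values came from VSP2, a jasmonate-responsive storage protein gene, at 1.43 ± 0.47 (edgeR adjusted p = 0.1861), and of FRK1, an immune receptor kinase gene, at -1.02 ± 0.37 (edgeR adjusted p = 0.2426). Of the clock genes, the evening gene ELF4 had a log2 difference of 0.63 ± 0.26 (edgeR adjusted p = 0.3268) and the morning gene CCA1 one of -0.54 ± 0.23 (edgeR adjusted p = 0.3779). Phosphate starvation genes had a median of -0.09 over 14 genes, 10 of them negative, with PHO1;H1 as the called one. Iron deficiency genes had a median of 0.26 over 12 genes, after BHLH100, which had no count in any Col library, was set aside, and of 0.13 against the other 7 SALK lines.

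Markers of root cells held no called gene. Median log2 values against Col were -0.12 for root hair, 0.04 for xylem, 0.22 for phloem, -0.23 for endodermis and suberin, 0.16 for root cap and -0.02 for dividing cells. Against the other 7 SALK lines the medians were -0.05, 0.14, 0.13, -0.02, -0.07 and -0.08 in the same order. Root hair genes had a negative value in 10 of 10, between -0.36 and -0.05, and 7 of 10 against the other 7 SALK lines. ESB1, which shapes the Casparian strip of the endodermis, had the smallest adjusted p of these lists at 0.06855 (edgeR), from 179 ± 7.93 CPM in SALK_070847C and 252 ± 53.0 CPM in Col, while the other 7 SALK lines averaged 193 CPM. In whole roots, fewer cells of a type and less RNA per cell cannot be told apart.

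Genes of photosynthetic tissue lay above both references in fitted value, with 1 call. All 15 tested members had a positive log2 value against Col, with a median of 0.97, and all 15 against the other 7 SALK lines, with a median of 0.67. LHCA2 was the called member, against the other 7 SALK lines. On 10 mM KNO3 14 of 15 were positive, with a median of 0.77 and 0 genes called. The summed level of the 18 listed genes was 153, 225, 195 and 108 CPM in the SALK_070847C libraries, against 106, 122, 119 and 125 CPM in the Col libraries and 91.5 to 181 CPM in the other 7 SALK lines. SALK_070847C replicate 4 lay inside the Col range, and replicates 2 and 3 lay above every reference library. Values ranged from 0.18 ± 0.19 in PSBO1 to 3.21 ± 1.56 in LHCB1.2, which averaged 0.641 CPM in SALK_070847C and 0.0467 CPM in Col. The means of the other 7 SALK lines in LHCB1.2 lay between 0.216 and 0.840 CPM, on both sides of SALK_070847C. The small subunit of Rubisco, RBCS1A, averaged 14.0 and 6.41 CPM (log2 difference 1.14 ± 0.31, edgeR adjusted p = 0.08544). No listed gene was at 0 in all 8 libraries. STN7 and PSBP-1, whose products work in the chloroplast, were higher in the comparison with the other 7 SALK lines too, and the part of shoot tissue in these values was not tested. Of the SALK_070847C libraries, STN7 was highest in replicates 3 and 4 (24.8 and 25.5 CPM) and the photosynthetic sum highest in replicates 2 and 3. Without SALK_070847C replicate 3 the median against Col was 0.47. It was 0.53 with the 52 libraries on 1 mM KNO3 fitted alone and 0.50 with only the SALK_070847C and Col libraries. Over the 19 alternative settings it lay between 0.46 and 1.115, so the size of 0.97 depended on the setting.

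Seed markers were at or near 0. The summed level of the 6 seed genes was 0.524, 2.13, 0 and 0.105 CPM in SALK_070847C, 0 in all 4 Col libraries and at most 0.415 CPM in the other 7 SALK lines.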

How the data were processed

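The deposited files held whole-number read counts per gene locus for 1 library and 1 sequencing run each. Per the submitters' processing notes the authors used FastQC, Bowtie, SAMtools, HTSeq and limma with the build TAIR10, and the strand setting and versions are not given in the sources used here. The 2 runs of a library were summed, only nuclear loci were kept, as the second run gives no organelle counts, and 19664 of 33323 nuclear loci passed filterByExpr with a minimum count of 10. Genes were tested with edgeR 4.0.16 (quasi-likelihood, TMM scaling, R 4.3.3) in 1 fit over all libraries with a coefficient per group of line and concentration, and p-values were adjusted by Benjamini-Hochberg over all tested genes at a threshold of 0.05. Levels and SDs are from TMM-scaled CPM, and SEs are of the log2 change. DESeq2 1.42.0 and limma 3.58.1 (voom) served as alternatives, with other filters, runs, sample sets, a strip term, a replicate block and left-out libraries.

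Names, positions and promoter sequence came from RefSeq TAIR10.1 by locus tag. The files carry no coordinates. Genes named were RAV2 and its family, genes called against both references, the called genes of at least 5 CPM with the largest change, members of the lists, the nearest neighbours of RAV2 and the genes leading the test between concentrations; others are marked as chosen after their values were seen, as were AT1G29660, BGLU35, NRT1.1, NRT2.1, RBCS1A and PSBO1. The comparisons, members and lists were chosen with earlier results of these data known. In simulated counts, the comparison with Col called 4% of the genes given a 1.25-fold change, 50% of those given 1.5-fold and 92% of those given 2-fold (50 genes for each size). In each of the 2 comparisons, 10 genes given no change were called. The changed genes were drawn only from those with a mean of at least 5 CPM. Simulated counts had the same mean in all other groups, a spread taken from the trend, and no strip or replicate effects. Recovery of lower genes, or with such effects, was not tested. Replicates combined separate plates of seedlings.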

Additional observations from a re-analysis of the deposited data

Results flagged for a closer look

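In 120 groups of 4 libraries checked, 4 held a library that stood apart by Dixon's criterion at the 95% level, and chance gives about 1 in 20. AT1G68862, a neighbour of RAV2, was at 3.04 CPM in SALK_070847C replicate 4, against 4.87 to 4.98 CPM in the other 3 libraries of the line. LBD38 was at 34.7 CPM in Col replicate 1, against 18.5 to 21.2 CPM in the other Col libraries. AT4G33130 was at 6.62 CPM in Col replicate 3, against 8.40 to 8.67 CPM in the others. cPT5 was at 38.9 CPM in Col replicate 1, against 44.7 to 45.8 CPM in the others. All of these are levels on 1 mM KNO3.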

How the results depend on the processing

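The count of 40 genes called against Col was 22 with no filter on low counts, 94 by DESeq2, 6 with the SALK_070847C and Col libraries fitted alone, 5 in run 1 alone, 12 in run 2 alone and 819 with the strip as a covariate, and it ranged from 10 to 78 as single libraries were left out. The count of 13 against the other 7 SALK lines was 8 in run 1 alone, 20 with the strip as a covariate and 26 against 11 other insertion lines (chosen after seeing the data), and ranged from 8 to 15 as single SALK_070847C libraries were left out. The count of 0 for the difference between concentrations was 2 with the strip as a covariate and ranged from 0 to 1 over left-out libraries. The causes were not tested. RAV2 kept its direction and its call in each setting, with a log2 change against Col between -1.79 and -1.52. No value reported changed sign as a called value.

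Same-numbered SALK_070847C and Col libraries correlated at 0.32, -0.13, 0.07 and 0.17 on 1 mM KNO3 and at 0.17, 0.11, 0.09 and 0.02 on 10 mM KNO3. Libraries of unlike number on 1 mM KNO3 correlated at -0.29 to 0.25. The main fit did not take the numbers as pairs, since the labels name no pairing. With the replicate number as a block, 239 genes were called against Col and 21 against the other 7 SALK lines. With that block and only the SALK_070847C and Col libraries, 39 were called against Col, 16 of them among the 40. Depth limits genes under about 5 CPM, such as PHO1;H1 and LHCA2, whose calls rest on few reads. By the title tags read as strips, only replicate 1 of SALK_070847C and Col shared a strip. The fit with the strip as a covariate takes the other strips' effects from libraries of the other lines.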
